A study of Homo sapiens with 48 samples.

Results

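The homeobox genes described here are 55 transcription factor genes that lie outside the 4 HOX clusters, taken by name from the 35535 genes of a count table, in which all 55 were found. RNA was sequenced from 8 cell lines of human bladder cancer, T24, TCCSUP, KU1919, HT1197, HT1376, SW780, VMCUB and 639V. Each is an established line, and the media differed between lines. Cells received CPI-0209, an inhibitor of the histone methyltransferase EZH2, at 250 nM for 4 days, or the vehicle DMSO. Each line had 3 DMSO and 3 CPI-0209 libraries, which made 48 libraries in 16 groups. The labels name no engineered allele, and what the groups share is the line and its medium. The question was which of these genes changed with CPI-0209 in each line, and how that related to whether the gene was silent or expressed with DMSO.

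Homeobox genes encode transcription factors that bind DNA through a homeodomain and set the identity of cells and body regions during development. In cells that do not use them, many are kept silent by Polycomb repressive complex 2 (PRC2), in which EZH2 methylates histone H3, often over promoters rich in CpG dinucleotides. The members fall into families with different duties: LIM factors (LHX, ISL, LMX1B) in neurons, limbs and gonads, DLX and MSX in face, skin and limb, NKX in ventral organs and neural tube, SIX2 to SIX5 in sense organs, kidney and muscle, IRX and MEIS in patterning with other factors, and paired-like factors in head and mesenchyme.

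A table of RefSeq promoters (GRCh38.p14, 250 bases before to 50 after each start) held 48 promoters for 38 of the 55 members, and 4 are printed to show how widely their CpG content varies. EN2, LHX2 and PRRX1 were called higher over the 8 lines and SIX4 was expressed in all of them; these 4 were chosen after their values were seen, among genes with 1 listed start. These sequences show the promoters of genes described further on. Each runs 5′ to 3′ on the strand of its gene, across the annotated transcription start, and capitals mark CpG dinucleotides.
EN2, chr7:155457879-155458178, plus strand: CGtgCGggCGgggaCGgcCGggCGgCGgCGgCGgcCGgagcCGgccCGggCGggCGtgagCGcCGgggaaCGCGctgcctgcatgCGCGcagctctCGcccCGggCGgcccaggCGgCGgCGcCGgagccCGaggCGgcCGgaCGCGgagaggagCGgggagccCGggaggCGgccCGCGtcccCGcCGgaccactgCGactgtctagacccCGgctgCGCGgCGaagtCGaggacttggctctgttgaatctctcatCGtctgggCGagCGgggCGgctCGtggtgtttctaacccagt
LHX2, chr9:124011518-124011817, plus strand: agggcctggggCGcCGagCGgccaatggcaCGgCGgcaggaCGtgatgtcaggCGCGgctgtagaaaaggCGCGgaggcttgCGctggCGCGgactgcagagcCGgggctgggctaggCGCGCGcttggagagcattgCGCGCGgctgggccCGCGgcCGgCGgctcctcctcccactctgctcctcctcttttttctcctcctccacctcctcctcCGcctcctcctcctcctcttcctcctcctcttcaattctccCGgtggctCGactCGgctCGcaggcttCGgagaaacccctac
PRRX1, chr1:170663881-170664180, plus strand: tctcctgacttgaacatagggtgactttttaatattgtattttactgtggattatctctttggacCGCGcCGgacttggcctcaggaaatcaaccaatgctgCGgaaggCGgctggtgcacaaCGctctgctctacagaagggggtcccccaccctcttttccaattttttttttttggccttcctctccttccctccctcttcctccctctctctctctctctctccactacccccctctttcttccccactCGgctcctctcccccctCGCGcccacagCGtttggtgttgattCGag
SIX4, chr14:60724302-60724601, minus strand: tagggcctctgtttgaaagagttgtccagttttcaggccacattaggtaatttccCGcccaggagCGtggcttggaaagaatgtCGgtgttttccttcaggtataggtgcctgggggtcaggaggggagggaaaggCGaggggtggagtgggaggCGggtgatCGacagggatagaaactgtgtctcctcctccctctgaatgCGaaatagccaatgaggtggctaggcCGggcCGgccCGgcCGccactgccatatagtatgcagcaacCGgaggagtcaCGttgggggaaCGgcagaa
EN2 had 50 CpG in its 300 bases, LHX2 30, PRRX1 11 and SIX4 14. Over the members' 48 promoters the median was 26 CpG, between 6 and 50, against 14 in all 35116 promoters of the table and 21 in the 22199 of protein-coding genes. The ratio of observed to expected CpG was at least 0.6 in 83.3% of the members' promoters, 48.9% of all promoters and 62.2% of those of protein-coding genes. The homeodomain core motif TAATTA, which reads the same on both strands, was in 6.25% of the members' promoters, 4.84% of all and 3.39% of the protein-coding ones. These are descriptions of sequence, and no binding or methylation was measured.

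Library totals lay between 26481418 and 50916911 counts, with a median of 41665645. Levels are in CPM, counts scaled by library size and a TMM scaling factor estimated within each line, given as mean ± SD of n = 3 libraries. Levels of different lines are therefore not on exactly 1 common scale. Changes compare CPI-0209 with DMSO on the log2 scale and are given ± SE, from edgeR's quasi-likelihood test, and a gene was called at a Benjamini-Hochberg adjusted p of at most 0.05 over all tested genes. Whether the 3 replicates came from separate cultures is not in the labels, and the p-values then cover only the spread between these libraries, which may be technical. In bulk RNA, more cells that express a gene and more RNA per cell cannot be told apart. Of 18 urothelial and epithelial markers, KRT18, a keratin of simple epithelia, was between 698 and 12838 CPM with DMSO. Others varied more between libraries, with CDH1 from 0.661 to 1338 CPM and EPCAM from 0.988 to 249 CPM. Of 4 uroplakins, which mark differentiated urothelium, UPK1B reached 544 CPM with DMSO, UPK2 114 and UPK1A 99.2, and UPK3A did not exceed 1.97. Their medians over the DMSO libraries were only 1.31 CPM for UPK1B, 0.707 for UPK2, 0.145 for UPK1A and 0 for UPK3A. Of 8 leukocyte markers, the B cell gene MS4A1 did not exceed 0.0234 CPM, and 5 did not exceed 1 CPM with DMSO. CD68 reached 109 CPM with DMSO, CD14 35.2 and PTPRC 28.1. EZH2 stood at 0.03 ± 0.03 over the 8 lines (edgeR adjusted p = 0.513), EED at -0.11 ± 0.05 (0.116) and SUZ12 fell by 0.21 ± 0.05 (0.0249).

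Most changes among the members were increases. With 55 members in 8 lines there were 440 pairs of member and line, and 180 of them were called higher with CPI-0209 and 25 lower. In all, 47 members rose in at least 1 line, 20 fell in at least 1, and 18 of these did both in different lines. These counts include pairs tested only through their CPI-0209 libraries. The share of all genes called in at least 1 of the 8 lines was not computed, so the counts have no background. In SW780 alone 30.8% of all tested genes were called higher and 30.3% lower. LHX4 and SIX5 only fell. ISL1 and PITX3 were tested without a call, and NKX6-2, OTX2, IRX1 and CDX1 had too few counts to be tested in any line. A pair was tested when at least 3 of the 6 libraries of a line reached a minimum level, between 0.216 and 0.276 CPM depending on the line, which 307 pairs did. Of these, 77 passed that filter only with the help of their CPI-0209 libraries, which favours a call of higher. For such pairs the log2 change is given alone, without SE or p, and their calls support nothing further. Among the 230 pairs whose DMSO libraries passed it alone, 108 were called higher and 25 lower, which is to be read against 16.8% higher and 15% lower of 117930 such pairs over all genes.

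The level with DMSO divided the members into 3 classes. A member was silent in a line when its 3 DMSO libraries averaged below 0.1 CPM, expressed from 1 CPM, and low in between. This is a description without a test, because the DMSO libraries are also one side of the comparison. Of 159 silent pairs, 37 (23.3%) were called higher and 0 lower, beside 2.05% higher among 71658 silent pairs of all genes. At such levels a call of lower cannot be made. Of 93 low pairs, 64 (68.8%) were called higher and 0 lower, beside 18.0% higher and 0.704% lower among all genes. Of 188 expressed pairs, 79 (42.0%) were called higher and 25 (13.3%) lower, beside 15.9% and 16.7% among all genes.

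The classes did not stand for fixed sets of genes. Only 4 members were silent in all 8 lines and 7 were expressed in all, whereas 31 were silent in some lines and expressed in others. For those 31, 29 of 98 silent pairs, 44 of 60 low pairs and 45 of 90 expressed pairs were called higher, and 12 expressed pairs were called lower. The 133 untested pairs were mostly silent (122), with no CPI-0209 mean above 0.763 CPM. Of the 118 with any count, the libraries did not overlap with CPI-0209 above in 33 and with DMSO above in 2, beside 8.28% and 2.69% of 81603 such untested pairs of all genes. Just below the silent threshold lay MSX1 in TCCSUP, PRRX2 in HT1197 and SIX3 in VMCUB at 0.0930 to 0.0965 CPM, and just above it LMX1B in TCCSUP, DLX4 in T24 and IRX2 in VMCUB at 0.10 to 0.102 CPM. Around 1 CPM lay LHX6 in VMCUB, DLX4 and DLX1 in SW780 at 0.975 to 0.996 CPM, then NKX2-1 in KU1919, BARX2 in SW780 and GBX2 in TCCSUP at 1.05 to 1.09 CPM.

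**Figure D1:**
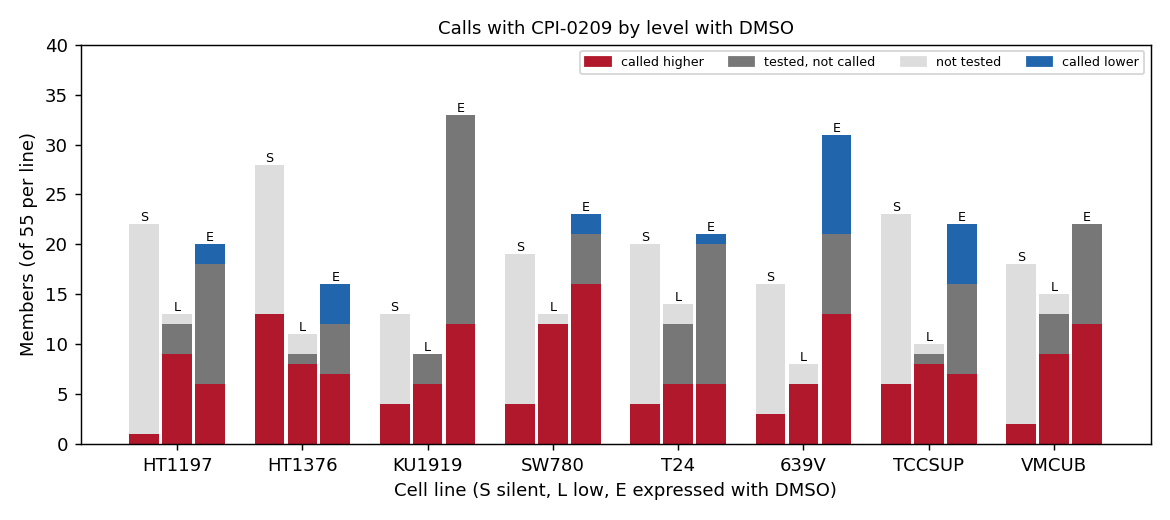
Number of the 55 members in each line (vertical axis), stacked by call, for members silent (S), low (L) or expressed (E) with DMSO. Calls lower, in blue, appear only in the expressed class, and the silent class is mostly untested, with 37 of 159 pairs called higher over the 8 lines.

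**Figure D2:**
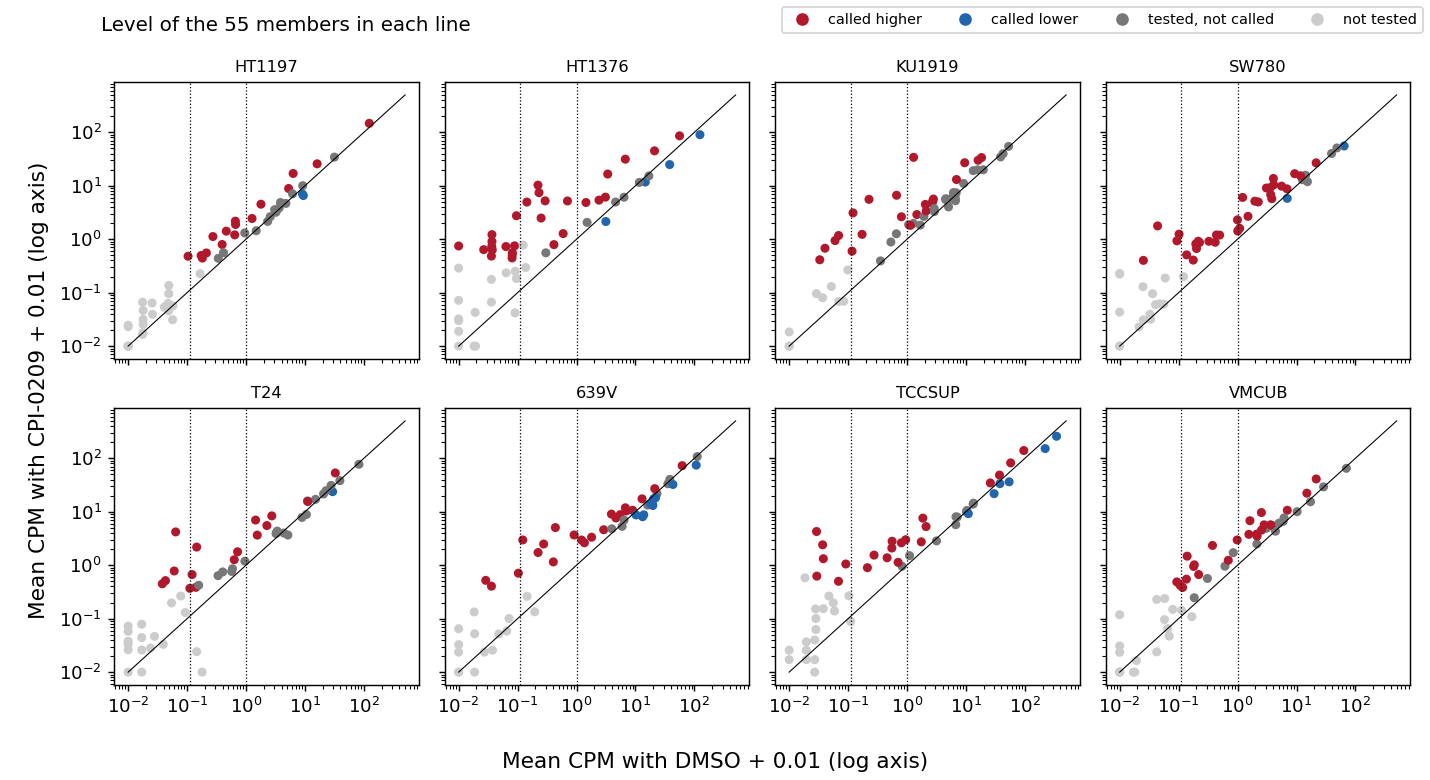
Mean CPM with CPI-0209 against mean CPM with DMSO, both plus 0.01 on log axes, for the 55 members in each line, with 1 point per member; the diagonal marks equal levels and dotted lines the limits of 0.1 and 1 CPM. Red points lie farthest from the diagonal on its left side, and the 25 blue points lie close to it at 1 CPM and above.

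The count of calls differed between the lines, as did that of all genes. HT1197 had 16 members higher and 2 lower, beside 11.8% and 7.8% of all tested genes. HT1376 had 28 and 4 (23.7% and 16% of all genes), SW780 had 32 and 2 (30.8% and 30.3%), and 639V had 22 and 10 (22.1% and 17.1%). TCCSUP had 21 and 6 (25.7% and 23%), T24 had 16 and 1 (9.37% and 0.93%). KU1919 had 22 and 0 (9.3% and 2.4%) and VMCUB 23 and 0 (16.4% and 11%). Between 33 members (HT1197) and 46 (KU1919) were tested per line. In HT1376 19 of the 38 tested passed the filter only with their CPI-0209 libraries, beside 6 to 10 in the other lines. This favours calls of higher, so the counts do not compare the lines on equal terms. HT1376 had the most members silent with DMSO, 28. Members at 1 CPM or more went from 16 to 25 in HT1376, 22 to 33 in TCCSUP, 20 to 26 in HT1197 and 33 to 40 in KU1919. They went from 23 to 29 in SW780, 21 to 26 in T24, 31 to 37 in 639V and 22 to 28 in VMCUB. The same count was not made over all genes. Over all lines 125 of the 440 pairs were called higher with a change of at least 2-fold, beside 4.78% of 209905 gene and line pairs with any count. In 0 pairs did a lower call reach 2-fold, beside 0.265% of those of all genes.

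In T24 the 16 higher calls became 10 without DMSO replicate 2, CPI-0209 replicate 1 or CPI-0209 replicate 2, and the single lower call, DLX1, was lost without any 1 of its 6 libraries. The 22 higher calls in KU1919 became 17 to 30 when 1 library was left out. Scaling to library totals, which moved the median of all genes in SW780 by 0.20, took the share of higher calls among all genes from 60.3% to 75.6% in HT1197, 50.5% to 75.0% in SW780, 56.4% to 71.9% in 639V and 59.9% to 79.8% in VMCUB. Under it all 180 higher member calls and 18 of the 25 lower ones were kept.

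**Figure D3:**
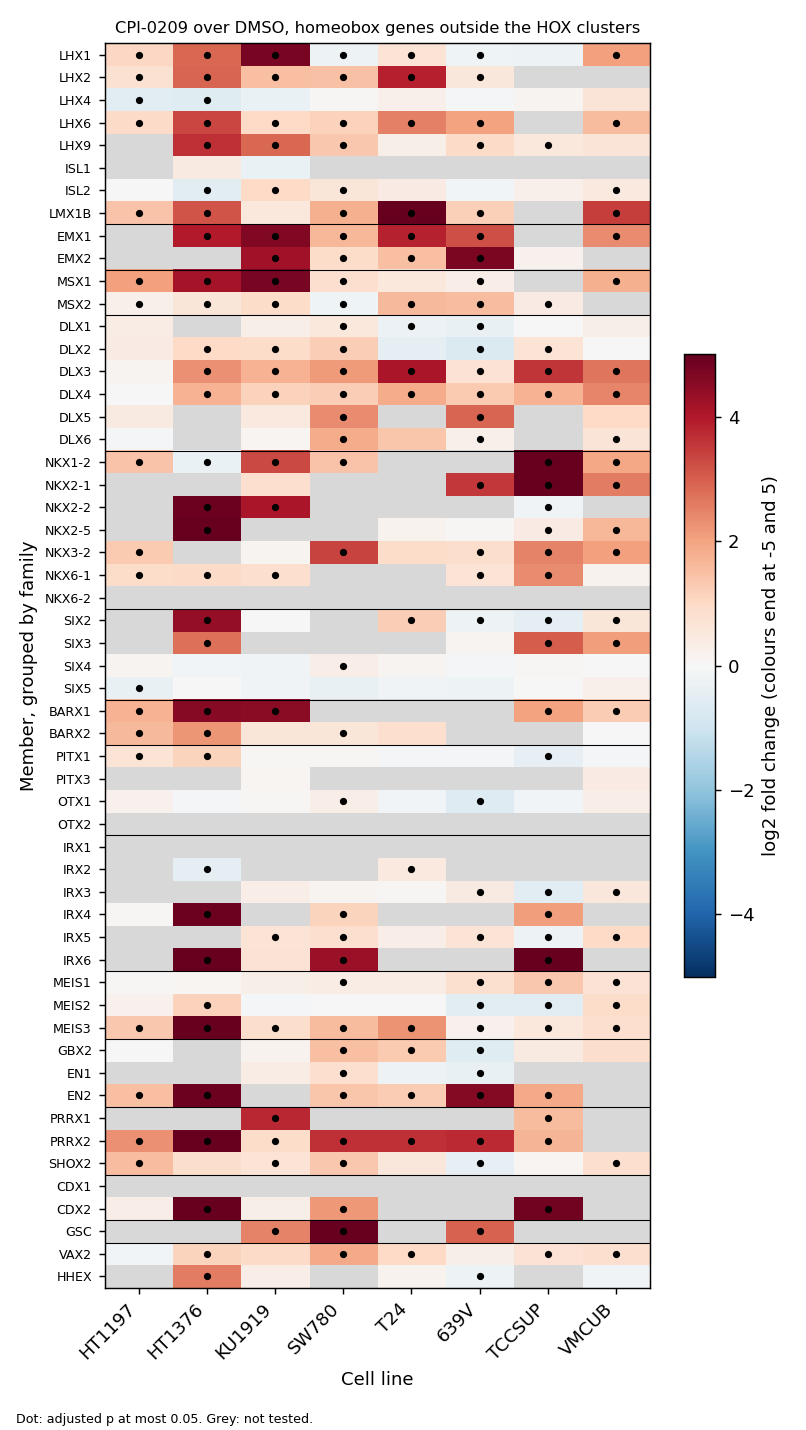
Log2 fold change of CPI-0209 over DMSO for the 55 members (rows, grouped by family) in the 8 lines (columns), red for higher and blue for lower, with a dot for each of the 180 higher and 25 lower calls and grey for pairs not tested. MEIS3 has a dot in all 8 columns, and the blue cells are pale because no lower call reached 2-fold.

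Over the 8 lines together, with 1 DMSO and 1 CPI-0209 sum per line, 15 of the 43 members that could be tested were higher and 0 lower, beside 7.31% higher and 4.41% lower of 18110 genes. The median change of the 43 was 0.94 and that of all genes -0.01. The 15 were LHX2, LHX6, LHX9, EMX1, DLX3, DLX4, DLX5, NKX3-2, SIX3, BARX1, BARX2, EN2, PRRX1, PRRX2 and VAX2. In this fit 17 members reached the filter level in all 8 DMSO sums, and 3 of them (DLX3, DLX4 and VAX2) were called higher, beside 4.84% higher and 5.47% lower of 14495 such genes. The other 12 of the 15 were tested with the help of their CPI-0209 sums, so their calls rest in part on that choice. For these 12 the shared log2 change is given alone, without SE or p, and their calls support nothing further. The count of 15 depended on the lines: it was 7 without HT1376, 9 without SW780, 7 without T24, 5 without TCCSUP and 7 without VMCUB. LHX2, LHX6, EMX1, DLX4 and PRRX2 stayed past the threshold without any 1 line. Scaling to library totals took the share of higher calls among all genes from 62.4% to 93.9%.

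EMX1, a factor of the developing cerebral cortex, was silent or low in every line with DMSO. Its 24 DMSO libraries ran from 0 to 0.350 CPM (median 0.0487) and its CPI-0209 libraries from 0.0470 to 6.32 CPM (median 0.510). Within each of the 8 lines the CPI-0209 libraries lay above the DMSO libraries, and the shared log2 change was 3.05. PRRX2, a factor of limb and face mesenchyme, ran from 0 to 7.03 CPM with DMSO (median 0.0873) and from 0.0880 to 17.4 CPM with CPI-0209 (median 0.823). Its groups were also apart in all 8 lines, and its shared log2 change was 2.89. Its partner PRRX1 was far lower in counts, from 0 to 0.615 CPM (median 0.0224) with DMSO. With CPI-0209 it ran from 0 to 1.53 CPM (median 0.122), and its shared log2 change was 2.01. The PRRX1 call was lost without HT1197, HT1376, KU1919, SW780, T24 or VMCUB. PRRX1 had a result under only 10 alternative fits, where EMX1 and PRRX2 had 12. Its call is therefore not shown to have held without the remaining lines.

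The other shared increases covered several families. LHX2, a factor of forebrain and hair follicle, ran from 0 to 9.76 CPM with DMSO (median 0.561) and from 0.147 to 29.1 CPM with CPI-0209 (median 3.16), and was apart in all 8 lines. LHX6, a factor of cortical interneurons, had a median of 0.964 CPM with DMSO (0 to 2.84). With CPI-0209 its median was 2.81 CPM (0.113 to 5.69), a log2 change of 1.77. EN2, a factor of the midbrain and hindbrain, went from a median of 0.310 CPM (0 to 4.18) to 1.93 CPM (0 to 9.72). Its log2 change was 2.17, and its call was lost without TCCSUP. LHX2 and EN2 were called higher both in lines where they were silent and in lines where they were expressed, and LHX6, silent in TCCSUP alone, was too low to be tested there. DLX4 had a median of 1.08 CPM with DMSO (0.0674 to 5.44) and 2.73 CPM with CPI-0209 (0.246 to 5.30). It rose by 1.38 ± 0.24 (edgeR adjusted p = 0.0158). Its neighbour DLX3, needed in skin and placenta, went from 0.558 CPM (0.0297 to 33.9) to 2.41 CPM (0.751 to 35.2), with 2.03 ± 0.43 (adjusted p = 0.0242), lost without HT1376, TCCSUP or VMCUB. DLX5, a bone and face factor, went from 0.197 CPM (0 to 2.17) to 0.879 CPM (0 to 7.99), a log2 change of 1.82. Without any 1 line other than HT1197 and KU1919 the DLX5 call was lost.

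The other 6 members called over the 8 lines were LHX9, BARX1, BARX2, VAX2, SIX3 and NKX3-2. LHX9, a gonad and limb factor, went from a median of 0.371 CPM (0.0238 to 97.4) to 0.994 CPM (0.0658 to 142). Its log2 change was 1.22. BARX1, a stomach and tooth factor, went from 0.0617 CPM (0 to 2.28) to 0.631 CPM (0 to 7.81), a log2 change of 1.98. Leaving out any 1 of the 8 lines ended both calls. BARX2 went from 0.739 CPM (0 to 10.7) to 1.45 CPM (0.0202 to 33.5), a log2 change of 0.94. Its call was lost without any line but VMCUB. VAX2, an eye factor, went from 0.708 CPM (0.102 to 4.63) to 1.41 CPM (0.539 to 5.25). Its change of 0.79 ± 0.20 (edgeR adjusted p = 0.0367) was lost without any line but HT1197. In a GENCODE annotation VAX2 overlaps ATP6V1B1 on the same strand, so its counts are uncertain. SIX3, a forebrain and eye factor, went from 0.0714 CPM (0 to 6.70) to 0.311 CPM (0 to 7.53), a log2 change of 1.61. Its call was lost without HT1376, SW780, T24, TCCSUP or VMCUB. NKX3-2, a factor of cartilage and spleen, went from 0.219 CPM (0.0498 to 2.05) to 0.808 CPM (0.215 to 3.67), a log2 change of 1.5. Its call was lost without HT1376, T24, TCCSUP or VMCUB.

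**Figure D4:**
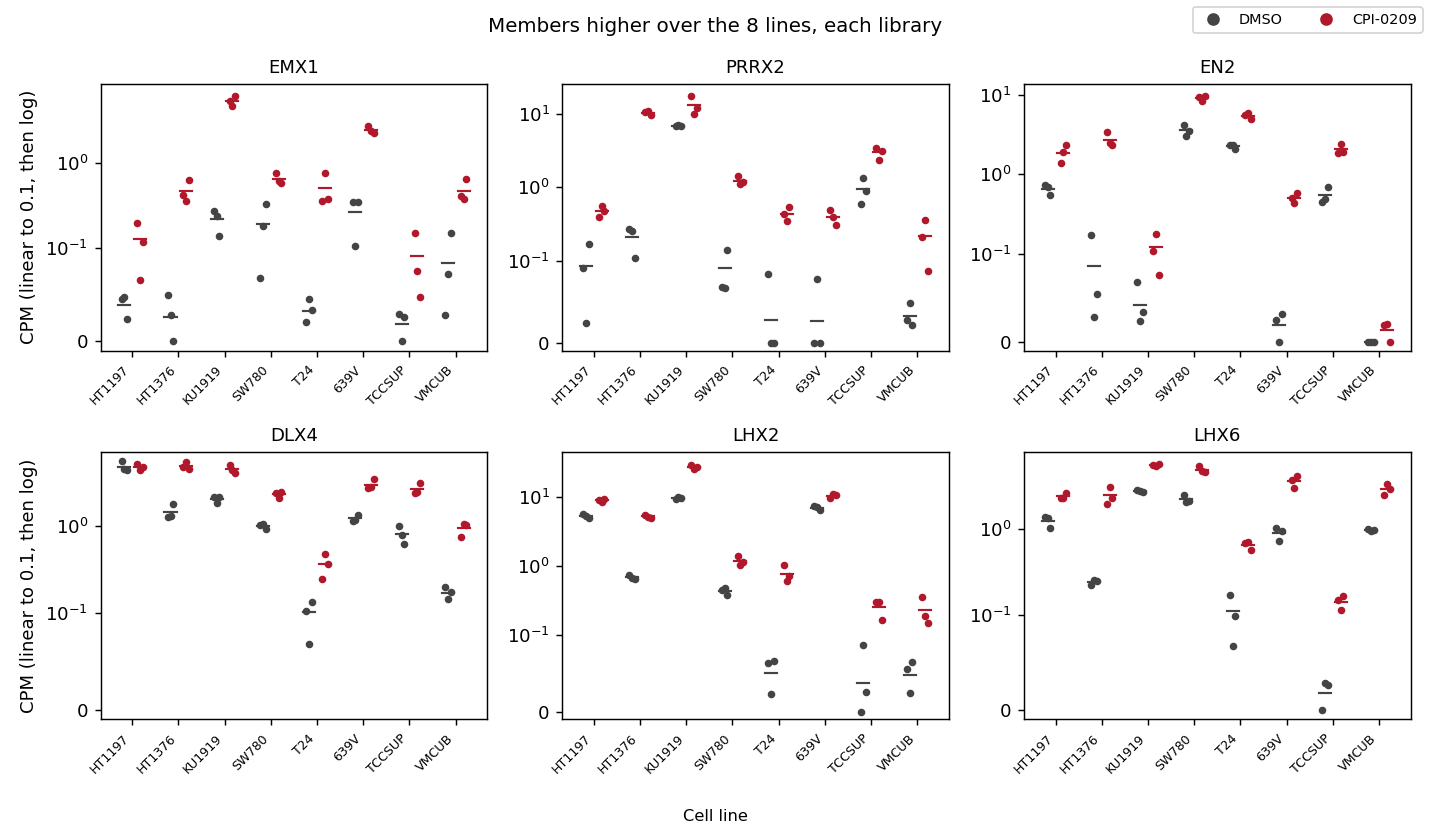
CPM in each library for 6 of the 15 members higher over the 8 lines, with 3 DMSO libraries (grey) and 3 CPI-0209 libraries (red) per line, short bars at the means, and an axis that is linear to 0.1 CPM and logarithmic above. The red points lie above the grey ones in all 8 lines for EMX1, PRRX2, LHX2 and LHX6, and in HT1197 the DLX4 points mix.

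The 8 LIM factors gave 64 pairs with line, of which 32 were called higher and 5 lower, beside 11.5% higher and 8.41% lower of the 209905 pairs of any gene with a count. LMX1B, a limb and kidney factor, rose most in T24, from 0.0839, 0.0449 and 0.0330 CPM with DMSO to 4.95, 4.14 and 3.45 CPM with CPI-0209, a log2 change of 6.13. In VMCUB it went from 0.0835, 0.241 and 0.0641 CPM to 1.44, 1.46 and 1.5 CPM, a log2 change of 3.48. The groups were far apart in both lines, and LMX1B was called higher in 6 lines, whereas its shared change of 1.99 ± 0.58 missed the threshold (adjusted p = 0.0541). LHX1, a kidney and head organizer factor, is described with the genes that differed most between lines. LHX4, a pituitary factor, fell in HT1197 from 9.79, 9.39 and 8.93 CPM to 7.17, 6.43 and 6.04 CPM, a change of -0.51 ± 0.08 (adjusted p = 0.000202). It also fell in HT1376, from 33.2, 38.9 and 41.9 CPM to 28.2, 21.5 and 24.9 CPM, by 0.61 ± 0.11 (adjusted p = 0.00235), with no overlap in either line. With the spread estimated from all 48 libraries the HT1197 call was lost (adjusted p = 0.104). LHX4 overlaps ACBD6 on the other strand, so reads of the 2 genes may not have been told apart. ISL2, a motor neuron factor, fell in HT1376 from 3.24, 3.01 and 3.15 CPM to 1.76, 2.26 and 2.37 CPM, by 0.57 ± 0.15 (adjusted p = 0.0127). In KU1919, SW780 and VMCUB it rose. In KU1919 the ISL2 call was lost without DMSO replicate 1, DMSO replicate 3 or CPI-0209 replicate 3, and in VMCUB without any library but DMSO replicate 2. ISL1, its relative, was tested in HT1376 at 0.45 ± 0.20 (adjusted p = 0.107) and in KU1919 at -0.34 ± 0.10 (adjusted p = 0.0708). In SW780 ISL1 had 0 counts with DMSO and 29 with CPI-0209, at least 7.99-fold higher with the DMSO group set to a floor of 3 counts.

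EMX1 and EMX2 were called higher in 10 of 16 pairs and lower in 0, MSX1 and MSX2 in 12 of 16 and lower in 1, beside 11.5% and 8.41% of all gene and line pairs. By gene, EMX1 and both MSX genes were called higher in 6 lines and EMX2 in 4. EMX1 went in KU1919 from 0.271, 0.240 and 0.138 CPM to 5.50, 4.83 and 6.32 CPM, a log2 change of 4.61. In 639V it went from 0.350, 0.104 and 0.346 CPM to 2.76, 2.41 and 2.27 CPM (log2 change 3.22). EMX2, a factor of the urogenital tract and cortex, rose in 639V from 0.05, 0.130 and 0.157 CPM to 2.60, 3.22 and 3.04 CPM (log2 change 4.72). In none of these did a CPI-0209 library reach down to a DMSO library. The EMX1 call in VMCUB was lost without CPI-0209 replicate 1 or 3, and the EMX2 call in T24 without any 1 library. MSX2, expressed in 6 lines, fell in SW780 from 63.9, 62.0 and 66.8 CPM to 58.7, 52.7 and 54.8 CPM, by 0.22 ± 0.05 (adjusted p = 0.00103). With library totals that change was -0.01 (adjusted p = 0.825, with a range from 3.81e-05 to 0.825 over its alternatives). In 6 other lines MSX2 was called higher, by between 0.26 in HT1197 and 1.61 in T24.

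The 6 DLX genes, which pattern the lower face, skin and interneurons, gave 24 higher and 3 lower calls in 48 pairs, beside 11.5% and 8.41% of all gene and line pairs. DLX3 in T24 went from 0.0630, 0.112 and 0.231 CPM to 2.24, 2.16 and 2.11 CPM (log2 change 4.08). In VMCUB it went from 0.334, 0.506 and 0.256 CPM to 2.47, 2.17 and 2.35 CPM (2.67 ± 0.24, adjusted p = 0.000451). Both sets were clear of each other. DLX5 in SW780 went from 1.53, 1.09 and 1.01 CPM to 2.35, 7.99 and 7.76 CPM, a change of 2.37 ± 0.63 (adjusted p = 0.0307), where CPI-0209 replicate 1 lay well below the other two. The DLX5 call in SW780 was lost without any 1 library but that one. DLX2 fell in 639V from 13.7, 12.7 and 13.2 CPM to 7.52, 8.40 and 8.24 CPM, by 0.71 ± 0.07 (adjusted p = 2.25e-06). DLX1 in T24 went from 29.3, 30.4 and 28.5 CPM to 23.9, 24.4 and 22.9 CPM (-0.31 ± 0.08, adjusted p = 0.0484, from 0.00295 to 0.296 over its alternatives), and leaving out any 1 of the 6 libraries ended that call. DLX6 was called higher in SW780, 639V and VMCUB, and the call was lost in 639V without DMSO replicate 1, DMSO replicate 2 or CPI-0209 replicate 1, and in VMCUB without DMSO replicate 1 or any 1 CPI-0209 library.

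DLX genes lie in pairs, and the pairs did not move alike. DLX3 and DLX4, within 26.3 kb of each other, were both called higher in 7 lines, and in HT1197 neither was (0.12 ± 0.05 and -0.02 ± 0.11, edgeR adjusted p = 0.103 and 0.915). In T24 the DLX4 call was lost without any 1 library. DLX1 and DLX2, within 18.2 kb, were both higher in SW780 and both lower in 639V, and in 4 other lines 1 of them was called. In SW780 the DLX1 call was lost without DMSO replicate 2 or CPI-0209 replicate 3. DLX5 and DLX6, within 19.4 kb, were both higher in SW780 and 639V. Genes of a pair share a region of chromatin and are not independent of each other.

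The 7 NKX genes were silent in 28 of 56 pairs with DMSO, and 23 pairs were called higher and 2 lower, beside 11.5% and 8.41% of all gene and line pairs. NKX2-1, the lung and thyroid factor, had 1, 0 and 2 counts with DMSO in TCCSUP and 129, 59 and 94 with CPI-0209, a ratio of 87.2 (95% counting interval 29.5 to 425) and up to 2.76 CPM. In 639V NKX2-1 went from 0.50, 0.468 and 0.315 CPM to 4.46, 5.46 and 5.22 CPM (3.53 ± 0.18, edgeR adjusted p = 1.83e-09). In VMCUB it went from 0.167, 0.313 and 0.0427 CPM to 1.05, 0.941 and 1.03 CPM (log2 change 2.54). NKX2-1 was thus called higher in 3 lines, and in HT1197, HT1376, SW780 and T24 it stayed below 0.1 CPM with either treatment. NKX2-5, the heart factor, rose in HT1376 from 0.124, 0.140 and 0.136 CPM to 4.70, 5.30 and 4.80 CPM (log2 change 5.17). In T24 and 639V, where NKX2-5 was already at 15.1 ± 2.4 and 38.2 ± 2.6 CPM, it was not called (0.18 ± 0.17 and 0.07 ± 0.09, adjusted p = 0.648 and 0.56).

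NKX2-2, a neural tube and islet factor, had 2 counts with DMSO and 61 with CPI-0209 in HT1376, a ratio of 36.0 (9.55 to 304). It also rose in KU1919, from 0.0501 ± 0.017 to 0.931 ± 0.18 CPM (log2 change 4.07). In TCCSUP, where NKX2-2 stood at 37.6 ± 2.8 CPM with DMSO, it was 33.5 ± 1.4 CPM with CPI-0209 (-0.17 ± 0.06, adjusted p = 0.0452). The libraries overlapped there, and the call was lost without DMSO replicate 1 or 3 or CPI-0209 replicate 1 or 3. NKX3-2 was called higher in 5 lines. Its call in HT1197 was lost without DMSO replicate 1, DMSO replicate 3 or CPI-0209 replicate 2. NKX6-1, an islet and motor neuron factor, was called higher in 5 lines, most in TCCSUP, from 0.548 ± 0.16 to 2.79 ± 0.30 CPM (2.36 ± 0.22, adjusted p = 1.77e-06). The NKX6-1 call was lost in HT1376 without DMSO replicate 1 or 3 or CPI-0209 replicate 2 or 3, and in KU1919 without DMSO replicate 1 or 2. NKX6-2 stayed below 0.1 CPM on average in all 16 groups.

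SIX2, SIX3, SIX4 and SIX5 gave 7 higher and 3 lower calls in 32 pairs, beside 11.5% and 8.41% of all gene and line pairs. SIX4 and SIX5, which act in muscle, were expressed in all 8 lines. SIX4 was called higher in SW780 only, from 21.5 ± 0.65 to 26.8 ± 1.4 CPM (0.32 ± 0.06, edgeR adjusted p = 9.39e-05). SIX5 fell in HT1197 from 9.02, 9.30 and 8.86 CPM to 6.72, 6.96 and 7.25 CPM, by 0.38 ± 0.07 (adjusted p = 0.000982). That call was lost with the spread estimated from all 48 libraries (adjusted p = 0.493). In the other 7 lines the SIX5 libraries overlapped. SIX2, a kidney progenitor factor, rose in HT1376 from 3 to 61 counts, a ratio of 24 (7.84 to 120). In TCCSUP, with 30.0 ± 0.65 CPM at the start, it fell to 21.8 ± 0.35 CPM (-0.46 ± 0.05, adjusted p = 1.56e-05), while its neighbour SIX3 rose from 0.0587 ± 0.059 to 0.490 ± 0.039 CPM (log2 change 3.04). The 2 genes, within 67.5 kb, were both called higher in HT1376 and VMCUB. SIX2 in 639V went from 10.2 ± 0.77 to 8.70 ± 0.68 CPM (-0.24 ± 0.08, adjusted p = 0.0358), a call lost without DMSO replicate 1 or CPI-0209 replicate 1 or 3.

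BARX1 and BARX2 were called higher in 8 of 16 pairs and lower in 0, beside 11.5% and 8.41% of all gene and line pairs. In HT1197 BARX1 went from 0.589, 0.618 and 0.738 CPM to 2.06, 1.95 and 2.48 CPM (1.73 ± 0.18, edgeR adjusted p = 4.31e-06). BARX2, an epithelial and muscle factor, went there from 0.476, 0.381 and 0.50 CPM to 1.45, 1.45 and 1.31 CPM (1.63 ± 0.20, adjusted p = 2.95e-05). Both were clear of their DMSO libraries. In HT1376 BARX2, expressed at 6.71 ± 0.57 CPM, rose to 31.4 ± 1.9 CPM (2.23 ± 0.08, adjusted p = 6.14e-08), and BARX1 rose from 3 to 67 counts, a ratio of 26.4 (8.64 to 131). In VMCUB, with BARX2 at 10.2 ± 0.81 CPM, no change was called (-0.03 ± 0.08, adjusted p = 0.792). The BARX2 call in SW780 was lost without DMSO replicate 2 or CPI-0209 replicate 3.

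Among 8 paired-like factors (PITX, OTX, PRRX, SHOX2 and GSC), 19 of 64 pairs were called higher and 3 lower, beside 11.5% and 8.41% of all gene and line pairs. PRRX2 had the largest rise in HT1376, from 0.274, 0.253 and 0.109 CPM to 10.4, 10.8 and 9.57 CPM (log2 change 5.56). In SW780 it went from 0.0679, 0.0670 and 0.140 CPM to 1.43, 1.10 and 1.16 CPM (log2 change 3.66). GSC, the organizer factor goosecoid, went there from 0.0340, 0.0447 and 0.0234 CPM to 1.63, 1.33 and 2.33 CPM (log2 change 5.57). Each of these 3 pairs was tested only through its CPI-0209 libraries. PRRX2 was called in 7 lines, but the call was lost in KU1919 without any 1 DMSO library or CPI-0209 replicate 3, and in T24 without DMSO replicate 2 or 3 or CPI-0209 replicate 1 or 2. GSC was also called higher in 639V and KU1919, in the latter not without DMSO replicate 3 or CPI-0209 replicate 3.

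PITX1, a hindlimb factor that all 8 lines expressed, fell in TCCSUP from 352, 322 and 357 CPM to 267, 252 and 254 CPM (-0.42 ± 0.05, edgeR adjusted p = 4.13e-05). It rose in HT1197 from 16.1 ± 1.4 to 25.7 ± 1.1 CPM and in HT1376 from 21.0 ± 0.69 to 44.9 ± 3.6 CPM. OTX1, a forebrain factor also expressed in all 8 lines, fell in 639V from 14.4, 13.5 and 13.5 CPM to 8.59, 8.51 and 9.13 CPM, by 0.66 ± 0.07 (adjusted p = 2.44e-06). It was called higher in SW780 (0.35 ± 0.11, adjusted p = 0.00998), though not without DMSO replicate 3 or CPI-0209 replicate 3. OTX2, its relative, had 0 DMSO counts in 7 lines. With CPI-0209 it had 13, 8 and 6 counts in HT1376, at least 10.6-fold higher. In SW780 it had 13, 10 and 7, at least 8.27-fold higher, and it was tested in neither line. SHOX2, a limb and heart pacemaker factor that overlaps RSRC1 on the other strand, fell in 639V from 43.2 ± 1.2 to 32.3 ± 0.64 CPM (-0.42 ± 0.05, adjusted p = 8.46e-06). It was called higher in HT1197, KU1919, SW780 and VMCUB, among them SW780, where it went from 4.09 ± 0.45 to 10.4 ± 0.94 CPM. The KU1919 call was lost without any 1 library but CPI-0209 replicate 1. PITX3 was tested in KU1919 and VMCUB and stood at 0.11 ± 0.29 and 0.40 ± 0.36 (adjusted p = 0.876 and 0.441).

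The IRX genes, which pattern heart, limb and neural tissue, were silent in 29 of 48 pairs, and 13 were called higher and 3 lower, beside 11.5% and 8.41% of all gene and line pairs. IRX6 had 0 DMSO counts in HT1376 and 30, 17 and 24 with CPI-0209, at least 27.9-fold higher. In TCCSUP it had 1 count in each DMSO library and 71, 33 and 50 with CPI-0209, up to 1.52 CPM, a ratio of 47.6 (95% counting interval 16 to 233). In SW780 it had 2 against 55 counts, a ratio of 22.7 (6.0 to 192). IRX6 thus appeared in lines where few or no counts had been present. IRX3 moved the other way in TCCSUP, from 57.7, 52.0 and 51.9 CPM to 36.0, 35.9 and 36.7 CPM, and fell by 0.57 ± 0.06 (edgeR adjusted p = 3.27e-06). IRX5, between them in the cluster, went from 10.9 ± 0.41 to 9.19 ± 1.2 CPM there (-0.26 ± 0.09, adjusted p = 0.0352), a call lost without DMSO replicate 1 or 3 or CPI-0209 replicate 1 or 3. These 3 genes lie within 1047 kb, and in SW780, 639V and VMCUB 2 of them were called higher together. IRX5 was also called higher in KU1919, not without any 1 DMSO library or CPI-0209 replicate 3.

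In the other IRX cluster, IRX2 and IRX4 went opposite ways in HT1376. IRX2 fell from 125, 124 and 123 CPM to 87.9, 93.9 and 88.3 CPM (-0.46 ± 0.05, edgeR adjusted p = 6.02e-05), and IRX4, a heart ventricle factor, rose from 3 to 86 counts, a ratio of 33.8 (11.2 to 167). IRX2 was expressed in 1 other line, T24, at 11.2 ± 1.5 CPM, and rose there to 15.5 ± 0.21 CPM (0.47 ± 0.11, adjusted p = 0.0432). That call was lost without any 1 library but DMSO replicate 1. IRX1, the third gene of the cluster, had 0 DMSO counts in all 8 lines and no mean above 0.0333 CPM with CPI-0209.

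The MEIS genes, whose products bind DNA together with other homeodomain proteins, were not silent in any line. MEIS3 was the 1 member called higher in all 8 lines. It rose in T24 from 1.49, 1.62 and 1.22 CPM to 7.69, 7.02 and 6.21 CPM (2.26 ± 0.16, edgeR adjusted p = 0.000291) and in HT1376 from 0.249, 0.169 and 0.245 CPM to 7.05, 8.39 and 6.77 CPM (log2 change 5.03). Where its DMSO level was highest, in 639V at 61.9 ± 0.91 CPM and in TCCSUP at 57.3 ± 2.5 CPM, it rose by 0.23 ± 0.05 and 0.52 ± 0.05. The MEIS3 call in VMCUB (0.82 ± 0.22, adjusted p = 0.035) was lost without DMSO replicate 1 or any 1 CPI-0209 library. MEIS2 fell in TCCSUP from 215, 226 and 221 CPM to 151, 153 and 152 CPM (-0.54 ± 0.05, adjusted p = 9.29e-07) and in 639V from 107 ± 3.1 to 74.4 ± 2.0 CPM (-0.52 ± 0.04, adjusted p = 3.67e-07). MEIS2 rose in HT1376 and VMCUB. MEIS1, a blood and limb factor, was called higher in SW780, 639V, TCCSUP and VMCUB, most in TCCSUP, from 2.09 ± 0.20 to 5.27 ± 0.22 CPM (1.33 ± 0.12, adjusted p = 1.56e-06). In VMCUB the MEIS1 call was lost without any 1 CPI-0209 library. Of the 14 members tested in all 8 lines besides MEIS3, VAX2, MEIS2 and PITX1 had changes most alike to it across lines, with Spearman correlations of 0.69, 0.64 and 0.62 over the 8 lines. MEIS1 had the lowest correlation of the 14, at -0.71. These values share the libraries of each line.

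In the small families, CDX2, the intestinal factor, had 1 count in each DMSO library of HT1376 and 36, 38 and 39 with CPI-0209, a ratio of 44.5 (95% counting interval 14.8 to 219), and up to 1.36 CPM. It had 2 against 73 counts in TCCSUP, a ratio of 33.9 (9.05 to 285), and was called higher in SW780, from 0.205 ± 0.060 to 0.905 ± 0.11 CPM. Where CDX2 was expressed, in HT1197 and KU1919, no call was made (edgeR adjusted p = 0.056 and 0.11). CDX1 had at most 0.0328 CPM on average in any group. EN1, GBX2 and HHEX, factors of the midbrain and of blood and liver, each fell in 639V. GBX2 went there from 19.7 ± 0.54 to 13.1 ± 1.2 CPM, EN1 from 18.1 ± 0.17 to 14.1 ± 0.83 CPM and HHEX from 21.9 ± 1.1 to 18.3 ± 0.95 CPM. In SW780 both GBX2 and EN1 were called higher, by 1.52 ± 0.28 and 0.86 ± 0.07. HHEX rose in HT1376, where it was silent, from 0.0705 ± 0.041 to 0.436 ± 0.14 CPM (log2 change 2.57). The GBX2 call in T24 was lost without DMSO replicate 2, CPI-0209 replicate 1 or CPI-0209 replicate 2. VAX2 was called higher in 5 lines, of which only SW780 kept the call without each 1 of its libraries. In HT1376 it was lost without DMSO replicate 2 or 3 or CPI-0209 replicate 1 or 3, in TCCSUP without the same 4, in VMCUB without DMSO replicate 1 or CPI-0209 replicate 1 or 3, and in T24 without any 1 library.

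The 25 falls were all in lines that expressed the gene, as were 17421 of the 17659 lower calls of all genes. The share of expressed pairs called lower was 13.3% for the members and 16.7% for all genes. By line, 10 of the 25 were in 639V and 6 in TCCSUP, where 17.1% and 23% of all genes tested were called lower. In 639V they were LHX1, DLX1, DLX2, SIX2, OTX1, MEIS2, GBX2, EN1, SHOX2 and HHEX, and in TCCSUP NKX2-2, SIX2, PITX1, IRX3, IRX5 and MEIS2. HT1376 added LHX4, ISL2, NKX1-2 and IRX2, HT1197 LHX4 and SIX5, SW780 LHX1 and MSX2, and T24 DLX1. Leaving out 1 library or changing a setting within the line left 18 of the 25 falls and 149 of the 180 rises in place each time, and 0 calls turned direction. With the spread estimated from all 48 libraries 15 falls and 176 rises were kept. The 10 falls lost were LHX1 in SW780 and 639V, LHX4 and SIX5 in HT1197, NKX1-2 in HT1376, NKX2-2 and IRX5 in TCCSUP, and SIX2, EN1 and HHEX in 639V.

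The change with CPI-0209 differed between lines for 48 of 52 tested members, beside 58.7% of 19790 genes (edgeR F test of the line by treatment terms on all 48 libraries). A member entered this test when at least 3 of the 48 libraries, of any line, reached the minimum level. The high CPI-0209 libraries of a single line were thus enough, so the count of 48 members rests in part on that choice. The smallest p belonged to LHX1, whose 3 KU1919 libraries went from 1.2, 1.06 and 1.59 CPM to 33.6, 32.9 and 35.3 CPM (4.75 ± 0.14, adjusted p = 2.55e-05). In VMCUB LHX1 went from 1.61 ± 0.34 to 6.78 ± 0.20 CPM, and in T24, at 32.7 ± 0.83 CPM, it rose to 53.1 ± 3.4 CPM. In SW780 it was 6.95 ± 0.76 CPM with DMSO and 5.79 ± 0.52 with CPI-0209 (-0.25 ± 0.10, adjusted p = 0.0427), with overlapping libraries, and in 639V 20.3 ± 1.2 and 17.4 ± 1.2 CPM (-0.22 ± 0.07, adjusted p = 0.0193). Those 2 lower calls were lost with library totals. The SW780 call was also lost without DMSO replicate 1 or 2 or CPI-0209 replicate 1 or 3, and the 639V call without DMSO replicate 2 or 3 or CPI-0209 replicate 1. The LHX1 rise in HT1197 was lost without CPI-0209 replicate 1.

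MSX1, a limb and tooth factor, rose in KU1919 from 0.158, 0.0720 and 0.103 CPM to 3.74, 2.90 and 2.64 CPM (log2 change 4.74). In HT1197 it went from 0.340, 0.214 and 0.238 CPM to 1.04, 1.03 and 1.26 CPM (log2 change 2.05). In 639V, which had 21.2 ± 0.62 CPM with DMSO, it rose by 0.35 ± 0.06 (adjusted p = 0.000472). MSX1 was called higher in 6 lines, and in VMCUB not without CPI-0209 replicate 2 or 3. NKX1-2 was near 0 in TCCSUP, with 0, 2 and 0 DMSO counts, and reached 169, 142 and 162 counts with CPI-0209 (3.61, 5.34 and 3.81 CPM), a ratio of 219 (95% counting interval 60.4 to 1817). In HT1376, with 14.7 ± 0.71 CPM, NKX1-2 fell to 11.7 ± 0.92 CPM (-0.32 ± 0.08, adjusted p = 0.0101). In KU1919 it rose from 0.654 ± 0.16 to 6.62 ± 0.16 CPM (3.31 ± 0.17, adjusted p = 0.000103). MEIS3, MEIS2 and DLX3 completed the 6 members with the smallest p. DLX5, SIX5, PITX3 and OTX2 were the 4 tested members without a call (adjusted p = 0.0868, 0.837, 0.429 and 0.155). OTX2 could be tested here, though in no line by itself, because libraries of different lines counted together toward the filter.

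**Figure D5:**
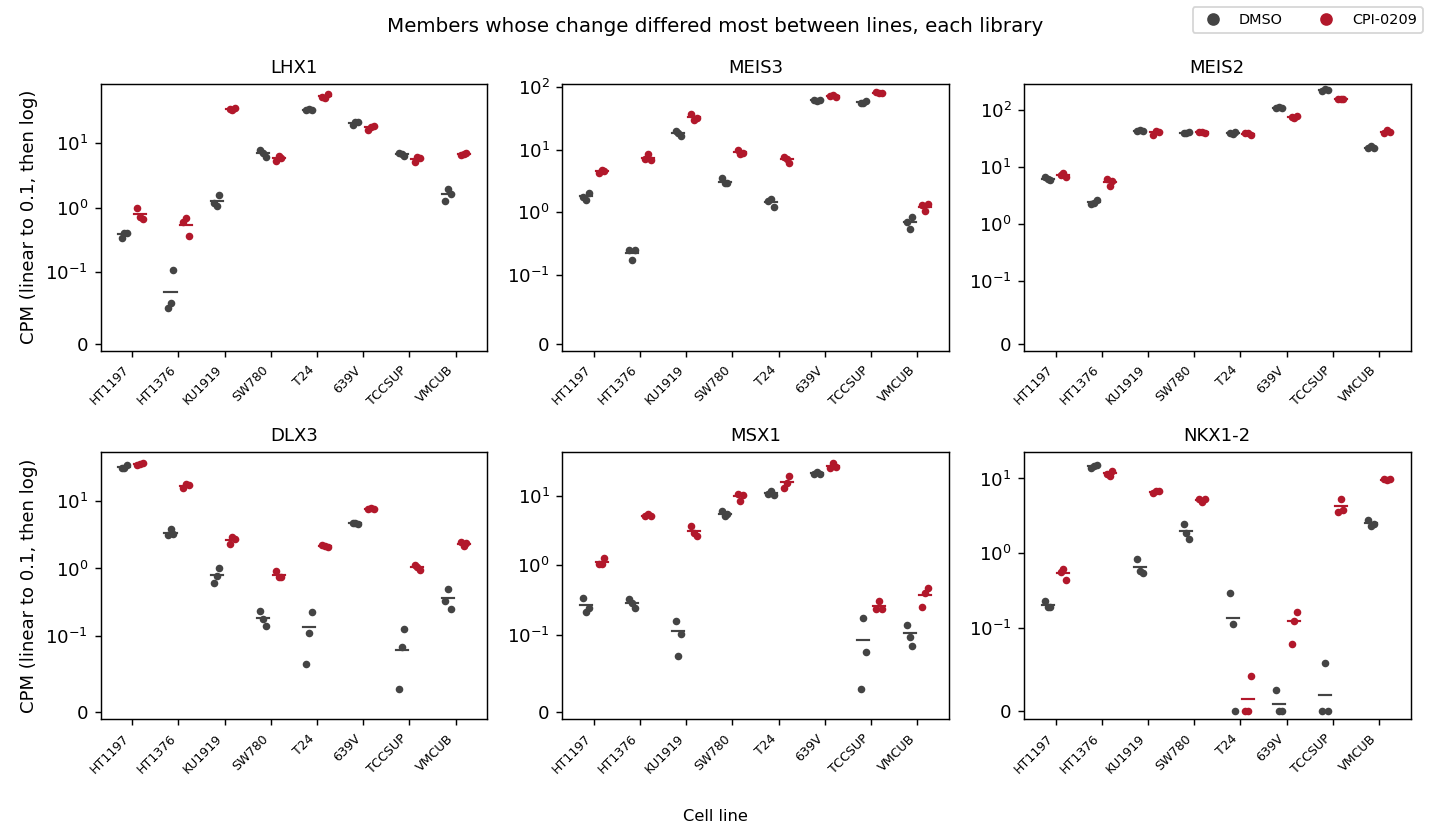
CPM in each library for the 6 members with the smallest p for a difference between lines, with DMSO in grey and CPI-0209 in red, 3 libraries per group, means as short bars, and an axis linear to 0.1 CPM and logarithmic above. LHX1 in KU1919, MEIS3 in HT1376 and NKX1-2 in TCCSUP show wide gaps, while MEIS2 in 639V and TCCSUP has its red points below the grey ones.

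Proteins that work with these factors were read from the same fits. Of 22 cofactor genes, 21 could be tested over the 8 lines, and 6 were higher and 0 lower, with a median of 0.38, beside 7.31% and 4.41% of all genes and their median of -0.01. LMO2, which bridges LIM-binding proteins and other factors, was called higher in 8 of 8 lines (1.88 ± 0.28, edgeR adjusted p = 0.0148), with medians of 0.761 CPM for DMSO and 3.24 CPM for CPI-0209. TLE3, a corepressor, was called higher in 6 lines (0.42 ± 0.08, adjusted p = 0.0169). The others were LMO1, EYA1 and EYA2, coactivators of SIX2 and its relatives, and DACH1. LMO1, EYA2 and DACH1 had DMSO medians of 0.0246, 0.0275 and 0.0284 CPM, so CPI-0209 sums helped them pass the filter. Of 39 HOX genes 36 were tested, with 1 higher (HOXB13), 0 lower and a median of 0.24, beside the same shares of all genes. Of 54 other developmental transcription factors 36 were tested, with 4 higher, 1 lower (PAX8) and a median of 0.62, beside the same 7.31% and 4.41%. In each list a gene could pass the filter with the help of its CPI-0209 sums, which favours a call of higher. Members of these lists share libraries with the homeobox genes, and the differences between lists were not tested.

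Markers of other cell types were measured in the same libraries. The 7 fibroblast markers summed to between 4.96 and 9158 CPM with DMSO and between 12.4 and 12278 CPM with CPI-0209, the highest in TCCSUP, and 1 of 7 (COL1A1) was called higher over the 8 lines. DCN, a defining fibroblast gene, had a median of 0.190 CPM with DMSO and 0.810 CPM with CPI-0209. The 8 neural markers summed to between 17.1 and 332 CPM with DMSO and between 48.1 and 523 CPM with CPI-0209, and 2 of 5 tested (NEFL and MAP2) were called higher, while ELAVL3 and ELAVL4 did not exceed 0.270 CPM. The 5 endothelial markers had 0 calls over the lines among 3 tested, with TEK up to 40.4 CPM with DMSO and 61.2 CPM with CPI-0209, PECAM1 up to 4.60 and 12.6 CPM, and KDR up to 0.0855 and 0.528 CPM. The part of these genes in the results on the homeobox genes was not tested.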

How the data were processed

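RNA-seq was done on 48 libraries, 3 per line and treatment, grouped by the submitters' labels. The authors deposited whole-number counts per gene, and STAR 2.7.3a, RSEM 1.3.1 and hg38 are named in the submitters' processing notes. The annotation, the use of strand and any rounding of estimated counts are not given in the sources used here, and antisense or overlapping genes can therefore share reads. The table held 35535 genes, 3756 of them at 0 in every library.

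From these counts, edgeR 4.0.16 in R 4.3.3 (TMM scaling, filterByExpr, robust quasi-likelihood fit) compared CPI-0209 with DMSO in each line on its 6 libraries. A shared fit used 16 sums of 3 libraries with terms for line and treatment, and an F test on 48 libraries compared the change between lines. P-values were adjusted by Benjamini-Hochberg over all tested genes, at 0.05. The fits were tested on simulated counts, where most 2-fold changes were recovered and false calls exceeded the nominal share in several lines. Library totals of 26481418 to 50916911 set the precision, and intervals and floors (3 counts) cover counting error only, since no molecular identifiers are given. Replicates of a group differed by more than sampling noise (chi-square over degrees of freedom from 2.2 to 137.9).

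The members and all gene lists were chosen with earlier results of these data known. Any member could be named: for members called in the shared fit the lowest, median and highest of 24 libraries per treatment were given, for the 6 with the smallest p between lines the values in selected lines (and all libraries in a plot), and in each line the libraries of up to 3 higher and 2 lower members of largest change that did not overlap and reached 1 CPM, and other members named were chosen after their values were seen. Alternatives were DESeq2 1.42.0, its size factors, library totals, no filter, a replicate block, all 48 libraries in 1 fit, and leaving out each library or line. Promoters came from RefSeq GRCh38.p14 and matched 38 of 55 members by symbol.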

Additional observations from a re-analysis of the deposited data

Results flagged for a closer look

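The change with CPI-0209 differed between lines, by an edgeR F test with Benjamini-Hochberg adjustment, for 48 members. That count rests in part on a filter that the high CPI-0209 libraries of a single line could pass. The 6 smallest adjusted p-values were 2.72e-24 for LHX1, 4.64e-20 for MEIS3, 6.33e-19 for MEIS2, 1.3e-17 for DLX3, 2.22e-16 for MSX1 and 9.13e-16 for NKX1-2. MEIS3, DLX3 and MSX1 had no lower call in any line and differed in the size of their rise, whereas LHX1, MEIS2 and NKX1-2 were called higher in some lines and lower in others.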

How the results depend on the processing

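No call turned direction under any alternative run within a line, and 149 of 180 higher and 18 of 25 lower calls held under each of them. With all 48 libraries in 1 fit 176 and 15 held. Lower calls moved most: with all 48 libraries in 1 fit they were 0 in HT1197, 1 in SW780, 4 in T24 and 6 in 639V. Library totals gave 0 in SW780 and 0 in T24, DESeq2 and the replicate block gave 1 in SW780, and T24 had 0 without the filter and with the replicate block. Leaving out 1 library gave 0 to 2 lower calls in KU1919 (2 without CPI-0209 replicate 1), 1 to 2 in SW780, 0 in T24 and 0 to 1 in VMCUB (1 without DMSO replicate 3). Higher calls then numbered 10 to 13 in T24, 17 to 30 in KU1919 and 17 to 25 in VMCUB. DESeq2 called 28 members higher over the 8 lines, and leaving out 1 line gave 5 to 11. With the silent threshold at 0.05, 0.2 or 0.5 CPM, 19, 57 or 82 silent pairs were called higher. Same-numbered libraries did not deviate together (r from -0.339 to 0.215, and in 0 lines all pairs above 0.1), so no pairing by replicate number was seen. Libraries of unlike number could deviate together, as did DMSO replicate 2 and CPI-0209 replicate 3 of T24 (r = 0.537). With the block T24 had 12 higher calls. Members under about 0.2 CPM could not be tested at this depth. The cause of these shifts was not tested.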
